A study of Homo sapiens with 10 samples.

Results

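Regulators and products of the late B-cell stages were followed in 8 genes of 697 cells, a human pre-B leukaemia line, by RNA-seq. The genes were chosen by symbol: PRDM1, BCL6, BACH1, BACH2, XBP1, JCHAIN, MZB1 and SDC1. All 8 had a row among the 27142 genes of the authors' table, each under 1 RefSeq accession (NM_182907 for PRDM1 and NM_001134738 for BCL6, for example). Which transcripts' reads were counted is not stated, so the values are not assigned to particular transcripts of a gene. The libraries came from the parental line, 2 from untreated control cells and 2 from cells given 0.5 µg/ml TPA (12-O-tetradecanoylphorbol-13-acetate), a phorbol ester that activates protein kinase C. Treatment time is labelled only as a range from 0 to 24 h, and all cells were grown in RPMI1640 with fetal bovine serum. CTCF and histone H1 ChIP-seq samples and input DNA of the same series, part of them from an inducible line expressing FH-NAP1, were not analysed here. Values are RPKM, read numbers corrected for transcript length and sequencing depth, which allows levels of different genes to be set side by side.

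A mature B cell that meets antigen can enter a germinal centre, where the repressor BCL6 holds the programme in place, or become a plasma cell, an antibody-secreting cell driven by the repressor BLIMP1, the product of PRDM1. BCL6 represses PRDM1 and BLIMP1 represses BCL6, and BACH2, with small MAF proteins as partners, also represses PRDM1. Downstream, XBP1 expands the endoplasmic reticulum, JCHAIN and MZB1 serve antibody assembly, and SDC1 (CD138) marks the plasma cell surface. Pre-B cells stand before both stages.

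The control libraries carried the precursor markers of their label, and with TPA most of these markers were far lower. All 11 defining pre-B markers checked were at 1 RPKM or more in both controls. Of the 11, 3 rose and 8 fell with TPA, with a median log2 fold change of -2.84. IGLL1 and VPREB1, which encode the surrogate light chain, were 51.0-fold and 25.4-fold lower, and DNTT, the terminal transferase gene, went from 775 and 803 to 14.6 and 37.4 RPKM. RAG1 and RAG2, the recombinase genes, were 8.10-fold and 10.8-fold lower, and MME (CD10) was under 1 RPKM in both TPA libraries. The B-cell receptor gene CD79A rose from 208 ± 13.2 to 858 ± 49.6 RPKM, and CD79B rose too. The summed level of the 11, 2145 and 2133 RPKM in control and 1198 and 1360 RPKM with TPA, therefore joins opposite moves, and CD79A makes up most of it with TPA. The 5 T-cell markers summed to at most 0.017 RPKM in a library, with CD3D, CD3E and TRAT1 at 0 in all 4. The 4 erythroid markers summed to at most 0.12 RPKM, with HBB at 0 in all 4. Of 6 myeloid markers, 5 were under 1 RPKM in every library (none at 0 throughout), and the sum ran from 0.667 to 1.01 RPKM in control and from 3.17 to 3.96 RPKM with TPA. CSF1R, the receptor for macrophage colony-stimulating factor, made up most of the TPA sum, with 2.93 and 3.66 RPKM against 0.548 and 0.706 RPKM. The part of these cell markers in the results was not tested. In bulk RNA, fewer cells expressing a gene and less of its RNA per cell cannot be told apart.

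Of the 8 genes, PRDM1 rose with TPA, 4 fell (JCHAIN, MZB1, XBP1 and BACH2), BCL6 and BACH1 did not pass the test, and SDC1 was too low to be tested. The test was limma on log2(RPKM + 1), TPA minus control, over the 12159 genes that reached 1 RPKM in 2 or more libraries, with Benjamini-Hochberg adjusted p under 0.05 as the threshold. Against 1 of 7 members, 28.4% of all genes tested rose, and against 4 of 7, 29.8% fell. Either way, 58.2% of all genes changed, so having changed did not set a member apart. PRDM1 passed the filter only through its TPA libraries, so the counts over members that passed are not used as support. The labels do not state whether replicates came from separate cultures; p-values here reflect the variation among these libraries alone, part or all of which could be technical. The 95% intervals of PRDM1, BACH2, XBP1, JCHAIN and MZB1 excluded 0 in the plot of fold changes, and those of BCL6 and BACH1 did not.

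**Figure D1:**
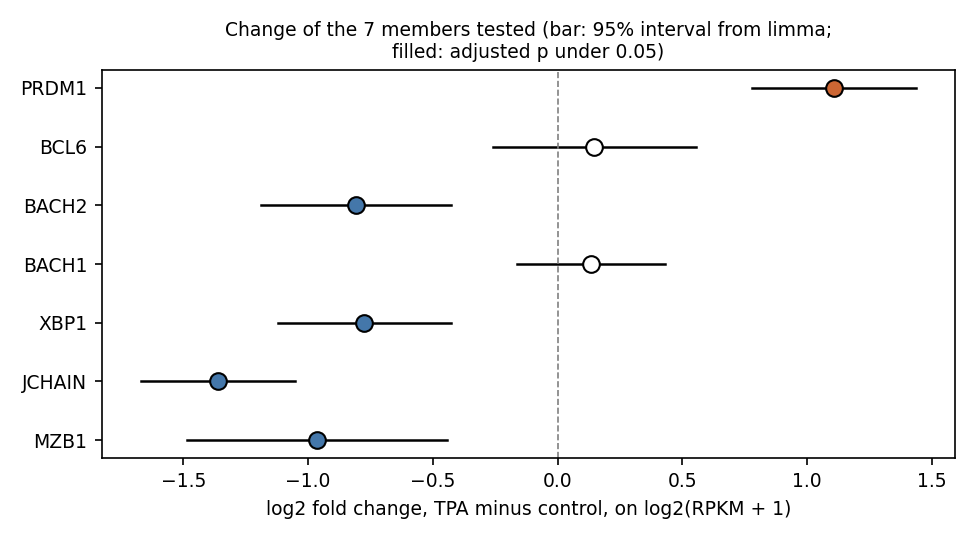
Log2 fold change (TPA minus control, on log2(RPKM + 1)) of the 7 members tested by limma, with 95% intervals as bars; filled points have an adjusted p under 0.05. PRDM1 lies at 1.11 on the right, and JCHAIN at -1.36 lies farthest to the left.

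PRDM1 (6q21) was the member that rose, and it was low in both groups. It had 0.552 and 0.678 RPKM in the control libraries and 2.79 and 2.20 RPKM in the TPA libraries. Both TPA values were above both control values, as for 38.8% of all genes tested, in the plot of RPKM by library. The mean went from 0.615 ± 0.0891 to 2.49 ± 0.421 RPKM (mean ± SD over 2 libraries, here and wherever ± is used), a ratio of 4.05. On the log2(RPKM + 1) scale, which understates changes of low genes, its log2 fold change was 1.11 (SE 0.142, limma adjusted p = 3.07e-04). With pseudocounts of 0.5 and 0.1 in place of 1, its log2 fold change was 1.42 and 1.85. With TPA, 63.6% and 61.1% of the genes in the table had a lower value than PRDM1, against 54.7% and 56.0% in control. With no filter on low values and 1 library left out, its adjusted p was 0.0858 and 0.0865 without control replicate 1 and 2, and 0.0429 and 0.0400 without TPA replicate 1 and 2 (1.51e-05 to 0.0865 over all its alternatives).

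BCL6 (3q27.3), the germinal centre repressor, stayed at a moderate level in all 4 libraries. It had 27.3 and 19.6 RPKM in control and 24.3 and 27.2 RPKM with TPA, so the groups overlapped. Among the genes tested, 79.8% had groups that did not overlap. The mean was 23.4 ± 5.48 RPKM in control and 25.8 ± 1.998 RPKM with TPA, and the log2 fold change was 0.15 (SE 0.176, limma adjusted p = 0.500). Its 95% interval ran from -0.26 to 0.56, which holds no change, a moderate rise and a small fall alike. The fold change was -0.08 without control replicate 2 and 0.38 without control replicate 1. BCL6 exceeded PRDM1 in every library, by 49.5 and 28.8 times in control and by 8.72 and 12.4 times with TPA. The log2 ratio of BCL6 to PRDM1 (pseudocount 1) was 3.90 in control and 2.94 with TPA, a difference of -0.96 against a pooled SD of 0.349; it was -1.70 with a pseudocount of 0.1. An exact two-sided permutation test of 2 libraries against 2 gave p = 0.333, the smallest it allows.

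**Figure D2:**
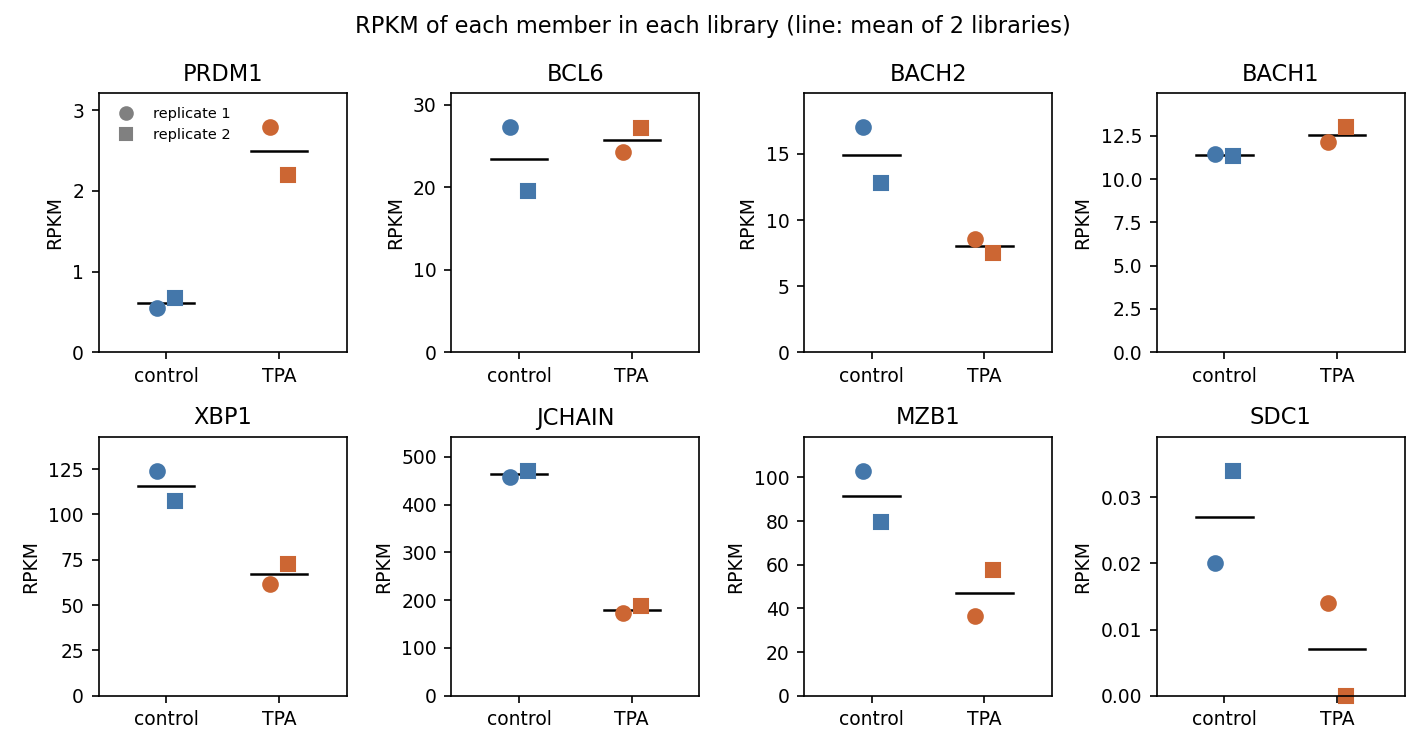
RPKM (linear axis from 0, its own scale in each panel) of the 8 members in each of the 4 libraries; circles are replicate 1, squares replicate 2, and lines the mean of 2 libraries. Control and TPA values are separate for PRDM1, BACH2, BACH1, XBP1, JCHAIN and MZB1, as for 79.8% of all genes tested. They interleave for BCL6, while SDC1 stays at or below 0.034 RPKM throughout.

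The sequences before the start sites of these opposed repressors are shown because each is a target of the other factor. They are the 250 bases upstream of the RefSeq gene start (build GRCh38.p14), at chr6:106086086-106086335, plus strand, and chr3:187745469-187745718, minus strand, 5′ to 3′, with capitals for matches on either strand to the letters TTCCNNGAA (a BCL6-type sequence, which STAT factors share), GNGAAAGT (BLIMP1-type), TGAGTCA (BACH and MAF-type, whose reverse complement is TGACTCA) or ACGTGG (XBP1-type).
PRDM1: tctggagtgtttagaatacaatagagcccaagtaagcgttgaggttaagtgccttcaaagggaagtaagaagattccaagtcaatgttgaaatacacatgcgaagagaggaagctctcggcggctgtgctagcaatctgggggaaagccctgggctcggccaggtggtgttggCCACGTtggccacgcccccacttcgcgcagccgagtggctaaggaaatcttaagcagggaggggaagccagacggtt
BCL6: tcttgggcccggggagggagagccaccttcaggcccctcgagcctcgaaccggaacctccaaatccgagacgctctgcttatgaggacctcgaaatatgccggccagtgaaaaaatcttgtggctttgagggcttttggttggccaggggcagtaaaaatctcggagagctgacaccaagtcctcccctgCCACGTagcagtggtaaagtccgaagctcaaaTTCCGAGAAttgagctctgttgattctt
The windows were matched by gene symbol, so they need not lie at the start of the transcripts that gave the RPKM. In these windows PRDM1 held ACGTGG on the reverse strand, from -77, and none of the other letters. BCL6 held ACGTGG on the reverse strand from -60 and TTCCNNGAA from -28. A further TTCCNNGAA match, on the reverse strand, began 37 bases into the transcribed side of BCL6 (chr3:187745419-187745442, minus strand), in tgcaagaagtTTCTAGGAAaggcc. Among 35116 RefSeq promoter windows of 300 bases, 250 before to 50 after the start, 4.45% held TTCCNNGAA, 4.09% held GNGAAAGT, 4.95% held TGAGTCA and 9.72% held ACGTGG. A match describes letters only. It does not tell which factor family could use them, and it is not a bound site.

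The BACH paralogues parted. BACH2 (6q15), the B-cell member of the pair, had 17.0 and 12.8 RPKM in control and 8.54 and 7.49 RPKM with TPA. Both TPA libraries lay below both controls, as for 41.0% of all genes tested. It fell from 14.9 ± 3.01 to 8.01 ± 0.743 RPKM, 1.86-fold, with a log2 fold change of -0.81 (SE 0.165, limma adjusted p = 0.00365). BACH1 (21q21.3), which is widely expressed and represses the haem oxygenase gene HMOX1, had 11.4 and 11.3 RPKM in control and 12.2 and 13.0 RPKM with TPA. Its TPA values were above both controls, as for 38.8% of all genes tested, yet the log2 fold change of 0.13 (SE 0.128, 95% interval -0.16 to 0.43, limma adjusted p = 0.403) did not pass. BACH2 exceeded BACH1 in both controls, by ratios of 1.49 and 1.13, and was lower than BACH1 with TPA, at ratios of 0.702 and 0.576. The log2 ratio of BACH2 to BACH1 went from 0.35 to -0.59, a difference of -0.94 against a pooled SD of 0.228 (exact two-sided permutation p = 0.333, the smallest possible).

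**Figure D3:**
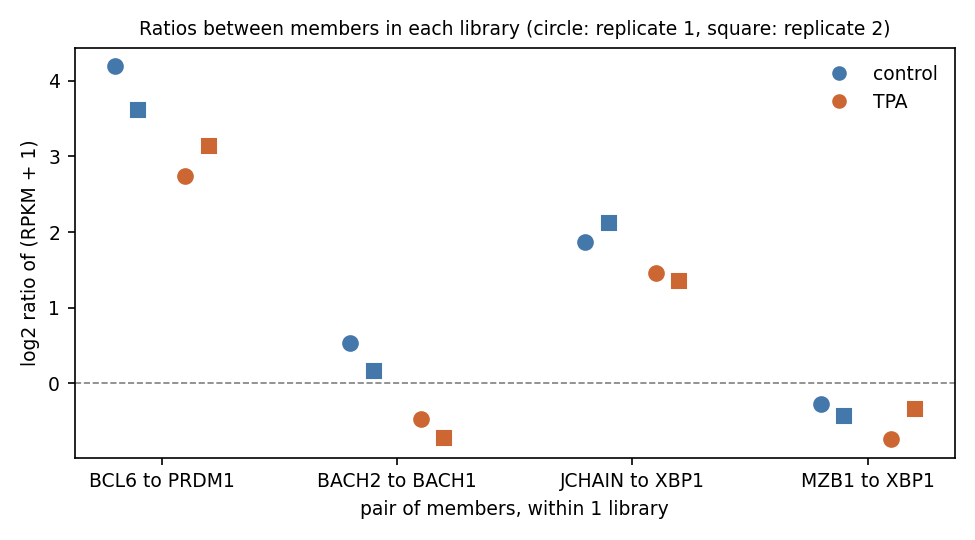
Log2 ratio of (RPKM + 1) between pairs of members within each library; circles are replicate 1 and squares replicate 2. BACH2 to BACH1 is above 0 in both controls and below 0 in both TPA libraries, and MZB1 to XBP1 overlaps between groups.

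The secretory genes were high in untreated pre-B cells and fell with TPA. JCHAIN (4q13.3), which encodes the chain that joins polymeric IgM and IgA, had 457 and 471 RPKM in control, above 99.7% of genes in each control library, and 172 and 188 RPKM with TPA. Controls and TPA libraries were far apart relative to the spread within each. The mean fell 2.58-fold, from 464 ± 9.94 to 180.0 ± 11.1 RPKM (log2 fold change -1.36, SE 0.134, limma adjusted p = 7.14e-05). JCHAIN was still above 99.1% of genes in both TPA libraries.

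XBP1 (22q12), the transcription factor of the secretory and unfolded protein programmes, had 124 and 107 RPKM in control and 61.8 and 72.7 RPKM with TPA. It fell 1.72-fold, from 116 ± 12.0 to 67.2 ± 7.73 RPKM (log2 fold change -0.77, SE 0.151, limma adjusted p = 0.00286). XBP1 messenger becomes fully active after splicing by the kinase and nuclease IRE1, and a gene-level RPKM does not tell the spliced from the unspliced form. ERN1, the gene of IRE1, was low, at 0.791 and 0.803 RPKM in control and 1.30 and 1.23 RPKM with TPA. ERN1 just passed, with a log2 fold change of 0.33 (limma adjusted p = 0.0492), but did not after median-of-ratios scaling (0.0505), after quantile normalization (0.511), without the variance trend (0.0517) or without control replicate 1 (0.293) or 2 (0.291).

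MZB1 (5q31.2) encodes an endoplasmic reticulum protein that helps antibody assembly and secretion as a partner of the chaperone GRP94. It had 103 and 79.5 RPKM in control and 36.6 and 57.5 RPKM with TPA, and its standard error below is the largest among the members tested. The mean fell 1.94-fold, from 91.3 ± 16.7 to 47.1 ± 14.7 RPKM (log2 fold change -0.96, SE 0.225, limma adjusted p = 0.00696). With no filter on low values it did not pass (adjusted p = 0.0614, in a range of 4.03e-05 to 0.0614 over its alternatives). HSP90B1, the gene of GRP94 and named here after its values were seen, had 191 and 236 RPKM in control and 250.3 and 282 RPKM with TPA, a difference that missed the threshold (log2 fold change 0.32, limma adjusted p = 0.112).

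Within libraries, the ratio of JCHAIN to XBP1 was lower in both TPA libraries than in both controls, and that of MZB1 to XBP1 overlapped. JCHAIN stood at 3.68 and 4.39 times XBP1 in control and at 2.79 and 2.58 times with TPA, a log2 ratio difference of -0.59 against a pooled SD of 0.137 (exact two-sided permutation p = 0.333, the smallest possible). MZB1 stood at 0.830 and 0.742 times XBP1 in control and at 0.593 and 0.791 times with TPA, and the groups overlapped (difference -0.19, pooled SD 0.217, exact two-sided permutation p = 0.667). TPA replicate 2 had more JCHAIN, XBP1 and MZB1 than TPA replicate 1, and also the higher sum of pre-B markers given above. That sum joins markers that rose, such as CD79A (823 and 893 RPKM in TPA replicates 1 and 2), and markers that fell, such as DNTT (14.6 and 37.4 RPKM). A part of the markers in the levels of JCHAIN, XBP1 and MZB1 was not tested.

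SDC1 (2p24.1), the plasma cell surface proteoglycan CD138, was at 0.020 and 0.034 RPKM in control, at 0.014 RPKM in TPA replicate 1 and listed at 0 in TPA replicate 2. These levels were below the filter, and no fold change is given.

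The upstream sequences of the 3 secretory genes are shown because they fell together while differing in base composition. They are again the 250 bases before the RefSeq gene start (GRCh38.p14), at chr4:70666509-70666758, minus strand, chr5:139389914-139390163, minus strand, and chr22:28800570-28800819, minus strand, with the capitals as above.
JCHAIN: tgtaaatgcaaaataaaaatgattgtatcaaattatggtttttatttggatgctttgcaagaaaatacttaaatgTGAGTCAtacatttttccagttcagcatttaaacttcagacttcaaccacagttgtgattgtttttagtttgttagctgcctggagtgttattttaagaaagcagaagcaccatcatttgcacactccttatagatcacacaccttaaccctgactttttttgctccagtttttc
MZB1: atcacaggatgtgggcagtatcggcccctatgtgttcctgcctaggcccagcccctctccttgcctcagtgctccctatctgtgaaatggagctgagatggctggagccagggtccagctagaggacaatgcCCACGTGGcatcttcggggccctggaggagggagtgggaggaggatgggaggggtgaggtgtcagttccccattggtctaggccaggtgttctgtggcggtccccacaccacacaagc
XBP1: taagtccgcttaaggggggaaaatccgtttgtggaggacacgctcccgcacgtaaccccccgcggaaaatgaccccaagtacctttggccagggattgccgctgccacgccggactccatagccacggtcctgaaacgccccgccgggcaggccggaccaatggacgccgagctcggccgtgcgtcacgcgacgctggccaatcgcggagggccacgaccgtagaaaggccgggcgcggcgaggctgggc
JCHAIN had a GC content of 32.8% and 0 CpG dinucleotides, MZB1 61.2% and 4, and XBP1 67.6% and 31, where the median of all 35116 windows was 58.0% and 11. JCHAIN held TGAGTCA from -175, a match that does not name the factor family. MZB1 held ACGTGG on both strands, overlapping in CCACGTGG from -118, which also holds the E-box letters CACGTG. XBP1 held none of the searched letters. Over the 300-base windows of all 8 members, ACGTGG was present in 3 (PRDM1, MZB1 and BCL6), TTCCNNGAA in 1 (BCL6), TGAGTCA in 1 (JCHAIN) and GNGAAAGT in 0.

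Other genes around these regulators were read from lists, which are described by counts beside the background of 28.4% rising, 29.8% falling and a median log2 fold change of -0.02 over all genes tested. Among 13 other plasma cell factors and receptors, 10 passed the filter: 7 rose, 1 fell and 2 missed the threshold, with a median of 0.80. IRF4, the transcription factor that acts with BLIMP1, had 19.0 and 15.5 RPKM in control and 58.4 and 47.8 RPKM with TPA, a 3.08-fold rise (log2 fold change 1.57, limma adjusted p = 9.50e-05). TNFRSF17, the plasma cell survival receptor BCMA, went from 0.108 and 0.022 to 11.1 and 11.4 RPKM, and CD27, a memory and plasma cell receptor, from 0.357 and 0.450 to 2.80 and 3.02 RPKM. CXCR4, the chemokine receptor that guides plasma cells to bone marrow, fell from 66.6 ± 14.2 to 29.6 ± 8.98 RPKM (limma adjusted p = 0.00295). Of the 10, 3 were tested through 1 group only, TNFRSF17 and CD27 among them. All 3 passed the filter only because they were high with TPA, so their rises are not used as support. When 7 genes were left to test, the median was 0.60 without TPA replicate 1 and 0.47 without TPA replicate 2.

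**Figure D4:**
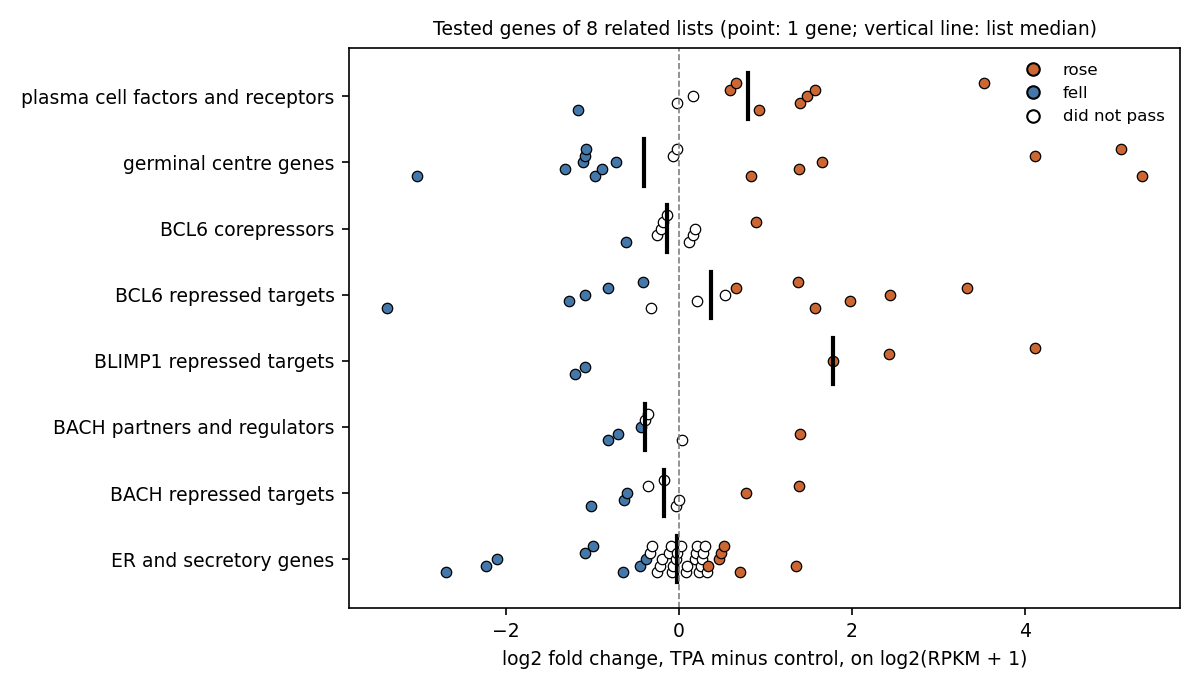
Log2 fold change (TPA minus control, on log2(RPKM + 1)) of each tested gene in 8 lists around the members, with the list median as a vertical line; filled points passed the test. The plasma cell factor list has a median of 0.80, with 3 of its 10 genes tested through TPA only, and the BLIMP1-repressed list 1.78. The endoplasmic reticulum and secretory list centres on -0.02 with a tail of falls to -2.69, the value of DERL3, which was tested through control only.

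Endoplasmic reticulum and secretory genes, among them many XBP1 targets, went both ways. All 37 passed the filter: 6 rose, 8 fell and 23 missed the threshold, with a median of -0.02. The falls were large for a few. DERL3, a component of the degradation pathway for misfolded proteins, went from 8.88 and 7.60 to 0.308 and 0.550 RPKM, 19.2-fold lower (limma adjusted p = 3.30e-06). FKBP11, a prolyl isomerase of secretory cells, went from 61.7 and 57.0 to 13.1 and 13.0 RPKM. EDEM1, which also acts in disposal of misfolded glycoproteins and is named after its values were seen, went from 157 and 184 to 30.8 and 40.6 RPKM, 4.77-fold lower. In the other direction, SEC11C, a signal peptidase subunit, rose from 23.6 ± 2.90 to 61.7 ± 1.27 RPKM, and ATF6, a sensor of unfolded proteins, from 7.32 ± 0.240 to 12.6 ± 0.427 RPKM. HSPA5, the gene of the chaperone BiP, had 135 and 137 RPKM in control and 173 and 162 RPKM with TPA; this missed the threshold (log2 fold change 0.30, limma adjusted p = 0.0810), but passed after quantile normalization (0.0131) and with the replicate block (0.0165), in a range given with the processing alternatives. The list's median was 0.05 after quantile normalization and without control replicate 2. With the replicate block 11 rose and 11 fell, so most passed, and after quantile normalization 11 rose and 7 fell. DERL3 was tested through control only and ERN1 through TPA only, so their changes are not used as support. The numbers that rose and fell were 2 and 4 without control replicate 1 and 3 and 5 without control replicate 2.

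Germinal centre genes went both ways. Of 21, 16 passed the filter: 6 rose, 8 fell and 2 missed the threshold, with a median of -0.40. Leaving out 1 library gave medians of 0.14 for control replicate 1, -0.22 for control replicate 2 and -0.92 for TPA replicate 2. In each of these fits 14 genes were left to test, so the medians are not over the same genes. MME and MYBL1 left the filter without a control library, and POU2F2 and RGS13 without a TPA library. These 4 genes were tested through 1 group only, each being under 1 RPKM in both libraries of the other. Their changes are not used as support. POU2F2, the gene of Oct-2, rose from 0.378 ± 0.126 to 56.2 ± 13.9 RPKM, and RGS13, a regulator of G-protein signalling found in germinal centre B cells, from 0.084 and 0.014 to 35.04 and 35.6 RPKM. MME (CD10), shared by precursor and germinal centre B cells, fell from 10.4 and 5.99 to 0.097 and 0.083 RPKM, and MYBL1 from 2.07 ± 0.0403 to 0.428 ± 0.135 RPKM.

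Few of the corepressors through which BCL6 acts passed the test. All 9 passed the filter: 1 rose, 1 fell and 7 missed the threshold, with a median of -0.14 (0.09 and 0.01 without TPA replicate 1 and 2). TBL1X rose from 9.28 ± 0.648 to 18.1 ± 2.06 RPKM, and GPS2 fell from 22.8 ± 2.15 to 14.6 ± 1.22 RPKM (limma adjusted p = 0.00665). Without control replicate 2 GPS2 did not pass (0.0761), and 0 of the 9 fell; without TPA replicate 2 and with the replicate block 2 fell.

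Genes known as targets that BCL6 represses were split. Of 18, 14 passed the filter: 6 rose, 5 fell and 3 missed the threshold, with a median of 0.37. CCL3, a chemokine gene, went from 0.027 and 0.028 to 8.41 and 10.3 RPKM, and ID2, an inhibitor of E proteins, from 0.407 and 0.451 to 6.69 and 6.81 RPKM. CHEK1, the checkpoint kinase gene, went from 33.5 and 41.6 to 2.20 and 3.27 RPKM, and BCL2, the survival gene, from 22.6 and 22.9 to 7.85 and 9.91 RPKM. Of the 14, 4 were tested through 1 group only, CCL3 and ID2 among them. These 4 were under 1 RPKM in both controls and belong to the 6 that rose, so their rises are not used as support. The median was -0.34 and -0.40 without TPA replicate 1 and 2, when 10 were left, and -0.06 with a filter at 5 RPKM; 2 rose without TPA replicate 2.

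Genes known as targets that BLIMP1 represses were split too. Of 6, 5 were tested, and 3 rose and 2 fell, with a median of 1.78. SPIB, an Ets factor of B cells, went from 3.66 and 5.01 to 101 and 81.9 RPKM, and CIITA, the transactivator of class II genes, from 6.94 and 6.98 to 39.7 and 44.0 RPKM. ID3, an inhibitor of E proteins and the remaining gene that rose, is named after its values were seen, at 99.7 and 101 RPKM in control and 309 and 391 RPKM with TPA. PAX5, the B-lineage identity factor, fell from 77.3 ± 4.42 to 33.3 ± 6.12 RPKM (limma adjusted p = 3.80e-04). MYC fell from 272 and 275 to 99.1 and 165 RPKM (limma adjusted p = 0.00391).

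Around the BACH factors, 7 of 8 partners and regulators passed the filter: 1 rose, 3 fell and 3 missed the threshold, with a median of -0.40 (-0.20 without control replicate 2). MAFK, a small MAF partner of BACH proteins, fell with a log2 fold change of -0.82, from 13.8 and 11.7 to 6.82 and 6.66 RPKM (limma adjusted p = 0.00133). MAFG, a further small MAF gene and named after its values were seen, fell less (log2 fold change -0.43, limma adjusted p = 0.0201). MAFF, another small MAF gene, rose from 2.05 and 1.41 to 6.11 and 6.29 RPKM. KEAP1, which controls the competing activator NRF2, fell from 48.0 ± 0.634 to 29.1 ± 3.97 RPKM. With the replicate block 5 of the 7 fell.

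Of 12 genes known to be repressed by BACH1 or BACH2, 9 passed the filter: 2 rose, 3 fell and 4 missed the threshold, with a median of -0.17. HMOX1, the haem oxygenase gene, was listed at 0 in both controls and had 2.09 and 1.22 RPKM with TPA. It passed the filter only because it was higher with TPA, so its rise is not used as support. SQSTM1, an autophagy receptor, rose from 28.0 and 25.7 to 46.4 and 47.0 RPKM. TXNRD1, the thioredoxin reductase gene, fell from 104 and 109.7 to 48.7 and 56.3 RPKM, and GCLM, a subunit of the enzyme that starts glutathione synthesis, from 6.10 and 6.69 to 3.15 and 4.46 RPKM. GCLM did not pass with no filter (adjusted p = 0.0661, against 0.0108), when 1 of the listed genes fell; 1 rose without TPA replicate 1 or 2, as HMOX1 then left the filter.

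For 6 of the tested members, the gene with the nearest pattern was sought among the 8722 genes averaging 5 RPKM or more, as the smallest Euclidean distance between log2(RPKM + 1) values centred on each gene's mean over the 4 libraries. The nearest were IBTK for PRDM1 (distance 0.0622), MLLT6 for XBP1 (0.0431), CMBL for JCHAIN (0.0241), MIR1227 for MZB1 (0.145), MPI for BCL6 (0.0688) and CYP51A1 for BACH2 (0.0409). PRDM1 itself averaged under 5 RPKM, and its mean rose 4.05-fold against 2.24-fold for IBTK. They are near on the log2(RPKM + 1) scale, which understates changes of low genes. With 4 libraries in 2 groups, these distances describe little beyond the size of the change on that scale and the replicate difference.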

How the data were processed

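RNA-seq libraries of parental 697 cells (2 control, 2 TPA) were grouped and numbered by title. The authors deposited 1 RPKM value per gene and library, per the file headers, for 27142 genes. CASAVA 1.8, Bowtie 1.12, TopHat, SAMtools and HOMER and the build hg19 are named, without roles, per the submitters' processing notes; strand use and multi-mapping are not given in the sources used here. Read totals are not given, so no counting interval is printed. The most common ratio between low values of the same gene (0.03 to 0.15 RPKM) placed the depth of the other libraries at 91.3% to 97.7% of control replicate 1. Only ratios close to equality were kept, so a large difference in depth could not have been seen. Summed RPKM ran from 349438 to 388846, and 11449 to 11878 genes had at least 1 RPKM.

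As RPKM are not counts, count models were not used. Genes reaching 1 RPKM in 2 or more of the 4 libraries were fitted as log2(RPKM + 1) in R 4.3.3 with limma 3.58.1. The fit used eBayes with a trend, two-sided, with 2 residual and 5.88 prior degrees of freedom. Benjamini-Hochberg adjustment was over all 12159. The procedure was run on simulated data in which a small part of the genes changed, none of them low in control. That simulation does not cover low genes or a change as broad as the one here. The members and lists were chosen with earlier results of these data known. Named are the 8 members, the 2 genes of each list with the smallest p in each direction, a fixed set (IRF4, PAX5, MYC, CIITA, HMOX1, MAFK, HSPA5 and ERN1, with 1 gene that is not reported here), the nearest gene to each member (that of BACH1 is not reported here), and genes said to be named after their values were seen. Alternatives were other pseudocounts (0.5, 0.1), no filter or one at 5 RPKM, median-of-ratios and quantile scaling, limma without the trend or with robust estimation, the replicate block, and each library left out; PRDM1 without the filter and a library was added after seeing the data. All 8 members matched the RefSeq promoter table (GRCh38.p14). By RefSeq positions, BCL6 overlaps LOC100131635, which was listed at 0 in all 4 libraries. Figures were drawn with matplotlib 3.10.9.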

Additional observations from a re-analysis of the deposited data

How the results depend on the processing

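JCHAIN, XBP1 and BACH2 fell, and BACH1 did not pass, under each of their 13 alternatives. The count of members that rose was 0 with the filter at 5 RPKM, and 0 to 1 with 1 library left out, because PRDM1 then had too few libraries above the filter. The count that fell was 4 in each fit with 1 library left out. Over all genes, 2516 to 3092 rose and 2412 to 3911 fell with 1 library left out; the 2412 was without control replicate 2. The log2 ratio of BCL6 to PRDM1 differed by -1.70 with a pseudocount of 0.1. With 1 library left out, log2 fold changes ran from -0.0833 to 0.378 for BCL6 and from -0.00891 to 0.365 for MPI. List medians then ran from -0.0802 to 0.0476 for endoplasmic reticulum and secretory genes and from -0.919 to 0.136 for germinal centre genes. They ran from -0.144 to 0.0854 for BCL6 corepressors and from -0.398 to 0.413 for BCL6 targets. Except for the corepressors, these medians were not all over the same genes, as some genes left the filter. The median of BCL6 targets was -0.0575 with the filter at 5 RPKM, and that of the secretory genes 0.0544 after quantile normalization, when 11 of them rose and 7 fell; 11 rose and 11 fell with the replicate block. HSPA5 had adjusted p-values of 0.0131 to 0.382 over its alternatives. Except where stated, the cause of a change was not tested. In a fit without a library, the lone sample of a group is assumed to vary like the other group. Without either control replicate limma's prior degrees of freedom were infinite, so those p-values are not on a par with the others.

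With the replicate number as a block, 1 member rose and 4 fell as without it, and 3946 genes rose and 4288 fell against 3454 and 3621. Deviations of same-numbered libraries correlated across genes (r = 0.36 over 12159 genes, which are not independent), but the labels share only a number. The reads behind each RPKM are unknown, which limits what can be said of PRDM1, SDC1 and HMOX1.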
